A study of Mus musculus with 5 samples.

Results

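The zinc finger genes Zfp600 to Zfp999 are protein-coding mouse genes with a numbered Zfp symbol in that range, letter suffixes included. By this rule 182 of the 21951 protein-coding genes of GENCODE M21 are members, and each was read for Gfi1 and Lsd1 peaks within 1 kb of any of its transcription start sites (TSSs). The rule uses names only and no peak, but it was set with earlier results of these data known. MG tumors are medulloblastomas that were grown from C57BL/6 cerebellar stem cells, sorted from postnatal pups as Prominin1+ and lineage-negative, infected with retroviruses for a stabilised mutant Myc and for Gfi1, and transplanted into NSG mice, which lack lymphocytes. Chromatin of 2 MG tumors, 39 and 41, was precipitated with an antibody to Gfi1 and, separately, with an antibody to Lsd1, which gave 4 libraries. Libraries of a tumor are paired, n is 2 tumors for each factor, and every tumor carries retroviral Gfi1, so no library lacks the factor. The input control was a pool of MGB (Myc/Gfi1b) tumors and has no peak list.

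Most members encode proteins with arrays of C2H2 zinc fingers, each of which contacts a few bases of DNA. Many also carry a KRAB box, which binds the scaffold protein Trim28 and, through it, the histone H3K9 methyltransferase Setdb1 and HP1 proteins, and many KRAB zinc finger proteins silence retroelements. The family has grown by tandem duplication, so that its genes often stand side by side in clusters of near copies. Gfi1 is itself a C2H2 zinc finger repressor, and its SNAG domain recruits Lsd1, a histone demethylase, together with CoREST.

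A count of C2H2 patterns in the translated coding sequences found at least 1 finger in 175 of the 182 members, with a median of 11 and a maximum of 33. A narrow KRAB pattern was found in 74 members and a wider pattern, chosen after the narrow one was seen to miss members, in 116. A member was called clustered when another member lay within 200 kb, which held for 116, and isolated otherwise, which held for 66. The clustered members form 29 runs, of which 11 hold 4 or more.

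The start regions of the members differ in base composition and in how far they can be told apart from their copies. The 200 bases upstream of the 5′ end of 5 members are shown because these members stand at the ends of the pattern described next. All are from mm10 (GRCm38), are written 5′ to 3′ on the strand of the gene, and have each CG dinucleotide in capitals. The first 2 genes had a peak over the 5′ end in all 4 libraries. They are Zfp787 at chr7:6155998-6156197 on the minus strand and Zfp874b, of the largest complete cluster, at chr13:67484259-67484458 on the minus strand.
Zfp787: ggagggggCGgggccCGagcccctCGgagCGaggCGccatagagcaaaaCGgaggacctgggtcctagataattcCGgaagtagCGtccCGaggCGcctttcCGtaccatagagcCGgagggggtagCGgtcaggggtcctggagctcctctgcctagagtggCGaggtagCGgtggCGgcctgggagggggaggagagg
Zfp874b: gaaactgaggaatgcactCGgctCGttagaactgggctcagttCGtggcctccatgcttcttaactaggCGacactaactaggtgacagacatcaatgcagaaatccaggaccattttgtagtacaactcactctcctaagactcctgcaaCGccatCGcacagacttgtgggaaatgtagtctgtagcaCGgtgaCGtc

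The other 3 had no peak in any library. They are the isolated Zfp616 at chr11:74069755-74069954, and Zfp989 at chr4:146971776-146971975 and Zfp990 at chr4:145510559-145510758, which stand in separate clusters of chromosome 4. All are on the plus strand.
Zfp616: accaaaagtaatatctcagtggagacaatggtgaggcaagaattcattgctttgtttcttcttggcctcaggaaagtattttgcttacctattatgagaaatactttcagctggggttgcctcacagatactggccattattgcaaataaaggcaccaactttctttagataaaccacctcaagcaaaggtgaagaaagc
Zfp989: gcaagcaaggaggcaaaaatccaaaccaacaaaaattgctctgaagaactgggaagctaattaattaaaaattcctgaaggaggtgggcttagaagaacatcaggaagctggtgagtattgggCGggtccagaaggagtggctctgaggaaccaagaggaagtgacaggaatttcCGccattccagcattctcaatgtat
Zfp990: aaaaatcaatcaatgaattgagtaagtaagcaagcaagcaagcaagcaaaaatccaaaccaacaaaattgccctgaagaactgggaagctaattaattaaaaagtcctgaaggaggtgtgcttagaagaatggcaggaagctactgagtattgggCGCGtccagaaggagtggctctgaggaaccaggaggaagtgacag

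These windows held 16 CGs at Zfp787, 8 at Zfp874b, 0 at Zfp616 and 2 each at Zfp989 and Zfp990. The windows of Zfp989 and Zfp990 share a run of 31 identical bases, while no other pair of the 5 shares more than 9.

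Peaks of Gfi1 and of Lsd1 lay at the start sites of most members, more often than at protein-coding genes at large. Gfi1 peaks were found at 140 members in tumor 39 (76.9%) and at 129 in tumor 41 (70.9%), a mean of 73.9% ± 4.27 (SD, n = 2). Over all protein-coding genes the shares were 65.0% and 54.2%. Lsd1 peaks were found at 127 members in tumor 39 (69.8%) and at 136 in tumor 41 (74.7%), a mean of 72.3% ± 3.50 (SD, n = 2), against 58.5% and 61.7% of all genes. The members were therefore above all genes in each of the 4 libraries, by 14.3 percentage points ± 3.32 for Gfi1 and 12.2 ± 1.23 for Lsd1. They were below the 209 genes Zfp1 to Zfp599 in each library, by 15.8 points ± 1.23 for Gfi1 and 18.9 ± 3.84 for Lsd1. No test between gene sets was run, since genes are not replicates, and the SD over the tumors is the spread given throughout. It is taken over 2 tumors at the same genes and does not measure the error of a difference between gene sets. The peak lists hold no read counts, so that an absent peak means only that none was called.

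**Figure D1:**
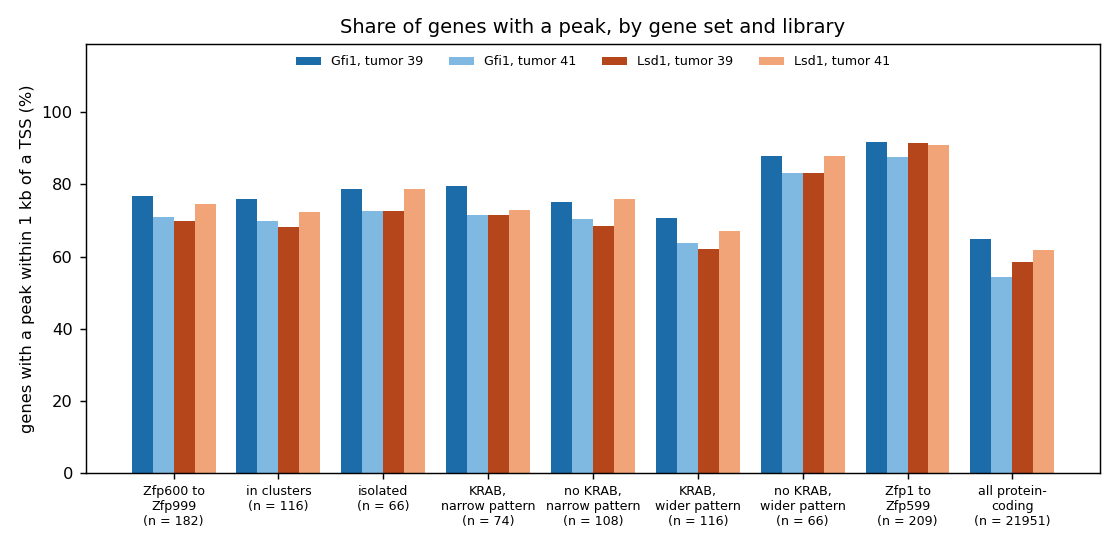
Percentage of genes with a peak within 1 kb of a TSS (y axis) in 9 gene sets (x axis, with the number of genes), 1 bar for each of the 4 libraries. The Zfp600 to Zfp999 genes lie between 69.8% and 76.9%, above all protein-coding genes in each library and below Zfp1 to Zfp599, and the KRAB split differs between the narrow and the wider pattern.

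The 4 libraries mostly named the same members. Of the 182, 123 had a peak at a TSS in all 4 libraries (67.6%, against 53.1% of all protein-coding genes) and 38 in none (20.9%, against 33.7%). That left 21 members with a peak in 1 to 3 libraries. Of these, 5 had a peak in the Gfi1 library of tumor 39 alone (Zfp618, Zfp641, Zfp872, Zfp991, Zfp995) and another 5 in that library and the Lsd1 library of tumor 41 (Zfp663, Zfp772, Zfp804b, Zfp931, Zfp938). Peaks of a factor in both tumors and none of the other factor were seen at 1 member, Zfp946, with Gfi1 and no Lsd1. They were weak, at percentiles 36.1 and 2.40 of the score within their lists, the deposited peak value that is used here only to rank peaks of a list. Lsd1 peaks in both tumors without Gfi1 were found at 0 members. Zfp970 was the single member with both peaks in tumor 41 and none in tumor 39, at percentiles 29.4 for Gfi1 and 4.90 for Lsd1. Among the 5 with a peak for Gfi1 in tumor 39 alone, the percentile was from 6.20 at Zfp991 to 51.5 at Zfp995. The highest value among the 21 was 69.9, at Zfp711.

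The members' peaks ranked lower than those of all protein-coding genes with a peak, and so did those of Zfp1 to Zfp599. Among members with a peak, the median score percentile of the highest peak was 73.7 for Gfi1 in tumor 39, 69.9 in tumor 41, and 69.9 and 69.2 for Lsd1. Over all protein-coding genes with a peak it was 82.5, 77.4, 79.0 and 81.0, and in Zfp1 to Zfp599 it was 78.6, 70.5, 72.4 and 75.7. The peaks were also narrower, with a median Gfi1 width of 1532 bp in tumor 39 and 1646 bp in tumor 41, and a median Lsd1 width of 1841 bp and 1723 bp. All genes with a peak had medians of 2086, 2185, 2516 and 2380 bp, and Zfp1 to Zfp599 of 1779, 1767, 1925 and 1941 bp. When only peaks in the upper 20% of the score were counted, 28.0% and 19.2% of members had one for Gfi1 and 23.6% and 23.1% for Lsd1. Over all genes the shares were 36.2%, 24.6%, 28.1% and 32.1%. With this cutoff the members stood below all genes in each library and the difference turned, to -6.76 points for Gfi1 and -6.77 for Lsd1. The members therefore had a called peak more often and a high-ranking peak less often than protein-coding genes at large.

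Among members with peaks in all 4 libraries, ranks went together between lists. The Spearman correlation across the 123 genes was from 0.755, between the Gfi1 libraries of the 2 tumors, to 0.900, between the Lsd1 libraries. Over all 11653 such protein-coding genes it was from 0.761 to 0.882. Genes are not independent replicates and the libraries of a tumor share their chromatin, so that these values are descriptions.

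The 10 members with the highest mean percentile were Zfp687, Zfp703, Zfp646, Zfp668, Zfp664, Zfp638, Zfp775, Zfp959, Zfp787 and Zfp651. Zfp687, which acts with Zmynd8 in a chromatin complex, led the list with percentiles of 98.6 and 97.9 for Gfi1 in tumors 39 and 41, and 99.2 and 99.9 for Lsd1. Its peaks were 3536, 4303, 4719 and 4437 bp wide. Zfp703, of the Nlz family of corepressors, followed with 98.6, 96.1, 98.1 and 99.2. Neither gene had a value below 96.1. The 98.6 for Gfi1 in tumor 39 is a tied score of 3100. Zfp687, Zfp703, Zfp646, Zfp668, Zfp664, Zfp638 and Zfp787 all had it, so that this library does not order them. For Lsd1 in tumor 41, Zfp703 and Zfp664 were tied in the same way at 99.2. Zfp646 and Zfp668, a gene linked to DNA repair, share 1 peak on chromosome 7, at percentiles 98.6, 94.8, 93.2 and 97.3, and cannot be told apart. In every library the peaks of Zfp687, Zfp703, Zfp664 and Zfp651 also came within 1 kb of a start of 1 other gene. Those of Zfp787 came within 1 kb of starts of 2 other genes. These peaks cannot be assigned to the member alone. Zfp638, whose protein brings the HUSH silencing complex to unintegrated retroviral DNA, had 98.6, 97.7, 90 and 93.8. These peaks of Zfp638 were at another TSS, 46315 to 46467 bp from the 5′ end. Zfp664 and Zfp651 were above 95 in 3 libraries and lower in the Gfi1 library of tumor 41, at 84.3 and 79.2. Of the 10, 1 has a KRAB match by the wider pattern, Zfp959, and 7 are isolated.

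The 5 widest were Zfp651, Zfp605, Zfp703, Zfp687 and Zfp839. At Zfp651 the widths were 9527, 6427, 9545 and 9151 bp, in the order Gfi1 of tumors 39 and 41 and Lsd1 of tumors 39 and 41. At Zfp605 the Gfi1 peaks were 1318 and 1305 bp wide and the Lsd1 peaks 11761 and 11557 bp. The Lsd1 peaks of Zfp605 also came within 1 kb of the starts of 2 other genes, while its Gfi1 peaks did not.

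**Figure D2:**
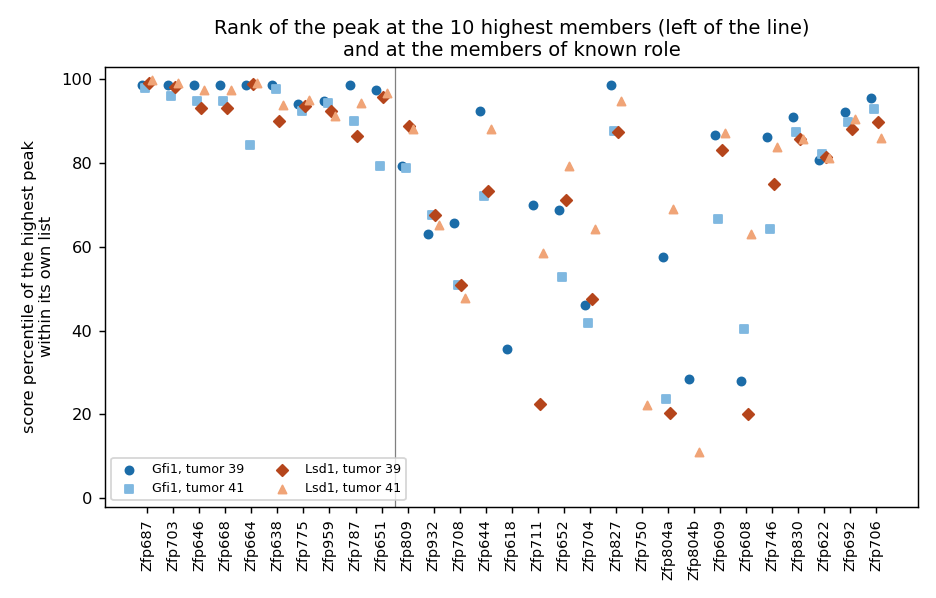
Score percentile of the highest peak within 1 kb of a TSS, within its own list (y axis), for the 10 members with the highest mean (left of the line) and the other members of known role (right), with 1 symbol per library and no symbol where no peak was called. The 10 highest lie above 79 in every library, and Zfp618, Zfp711, Zfp750 and Zfp804b lack a peak in 1 or more libraries.

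The members of known role were followed whatever their peaks. Of the 4 that silence retroelements or retroviral DNA, all had a peak in all 4 libraries. Zfp809 silences murine leukemia viruses through their primer binding site. It had percentiles of 79.3 and 78.9 for Gfi1 and 88.9 and 88.1 for Lsd1, so that Lsd1 ranked higher in both tumors. Its Lsd1 peak in tumor 39 also came within 1 kb of a start of 1 other gene. Zfp932, which silences endogenous retroviruses, had 63.0, 67.5, 67.6 and 65.1. Zfp708, which represses a class of retroviral long terminal repeats, had 65.6, 51.0, 50.8 and 47.8, at another TSS that lay 15947 to 16018 bp from the 5′ end. The last of the 4, Zfp638, is among the 10 highest.

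Of the 9 partners of chromatin complexes and corepressors, 6 had a peak in all 4 libraries. Zfp827, which brings the NuRD complex to telomeres, had percentiles of 98.6, 87.7, 87.5 and 94.9. Zfp644, a partner of the G9a and GLP methyltransferases, had 92.5, 72.2, 73.4 and 88.0, with the higher value of each factor in opposite tumors. Zfp652 had 68.9, 52.9, 71.2 and 79.3, and Zfp704 had 46.1, 41.8, 47.5 and 64.3. The Gfi1 peaks of Zfp704 in tumors 39 and 41 did not overlap. In every library the peaks of Zfp644 and Zfp652 also came within 1 kb of a start of 1 other gene. The X-linked Zfp711, a partner of the demethylase Phf8, had peaks in 3 libraries, at 69.9 for Gfi1 in tumor 39 and 22.4 and 58.5 for Lsd1. Zfp618, a partner of Uhrf2, had 1 peak at a TSS, for Gfi1 in tumor 39 at 35.6. This TSS lay 153127 bp from the 5′ end. The 5′ end itself, with 132 CpGs the highest count of all members, had no peak in any library. Zfp750, an epidermal differentiation factor that acts with Lsd1 in keratinocytes, had 1 peak, for Lsd1 in tumor 41 at 22.2.

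Of the 5 neural members, 4 had a peak in all 4 libraries and their ranks varied between libraries. Zfp804a, a risk gene for psychiatric disease, had 57.5, 23.6, 20.3 and 69.0, and its paralog Zfp804b had peaks in 2 libraries at 28.4 and 11. Zfp609, a regulator of neuronal migration, had 86.8, 66.6, 83.1 and 87.2, and its paralog Zfp608 had 28.1, 40.3, 20 and 63.0. The Gfi1 peaks of Zfp608 in tumors 39 and 41 did not overlap. Outside the Gfi1 library of tumor 41, its peaks also came within 1 kb of a start of 1 other gene. Zfp746, known as PARIS and a substrate of parkin, had 86.1, 64.2, 74.9 and 83.9. The 5 members of the last group, Zfp668, Zfp830, Zfp622, Zfp692 and Zfp706, had a peak in all 4 libraries and a lowest value of 80.6. The peaks of Zfp830 and Zfp706 also came within 1 kb of a start of 1 other gene in every library. At Zfp622, which acts in maturation of the large ribosomal subunit, Gfi1 had 80.6 and 82.1 and Lsd1 81.4 and 81.2.

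Lsd1 and Gfi1 were also compared within a tumor at the 123 members with peaks in all 4 libraries. Lsd1 had the higher percentile in both tumors at 21 members and Gfi1 at 33, and the sign differed between the tumors at 69. The median difference, Lsd1 minus Gfi1, was -5.38 in tumor 39 and 3.33 in tumor 41, so that neither factor was the higher in both. Of the members with Lsd1 higher in both tumors, the largest mean difference was at Zfp950, with Gfi1 at 9.0 and 36.5 and Lsd1 at 57.7 and 53.8, followed by Zfp605, Zfp821 and Zfp667. Zfp605, whose Lsd1 peaks are much the wider, had Gfi1 at 68.8 and 75.8 and Lsd1 at 95.7 and 96.9. In the other direction the largest were Zfp759, with Gfi1 at 60.7 and 67.4 and Lsd1 at 41.4 and 34.9, then Zfp953, Zfp873 and Zfp770. Zfp759 and Zfp953 stand in the same cluster of chromosome 13.

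Clustered members had a peak slightly less often than isolated members, but this difference was small and its sign was not fixed. For Gfi1 the shares were 75.9% and 69.8% of the 116 clustered and 78.8% and 72.7% of the 66 isolated members in tumors 39 and 41. For Lsd1 they were 68.1% and 72.4% against 72.7% and 78.8%. Clustered minus isolated came to -2.91 points ± 0.0185 for Gfi1 and -5.50 ± 1.24 for Lsd1, below 0 in each library. It turned to 5.11 and 2.02 when neighbours had to lie within 100 kb. It was -8.04 and -10.4 when they could lie within 500 kb. The 97 members with a neighbour within 100 kb had a Gfi1 peak in 76.3% ± 2.92, and the 19 with the nearest at 100 to 200 kb, just inside the rule, in 55.3% ± 11.2. The 10 with the nearest at 200 to 500 kb, just outside, had one in 55.0% ± 7.07 and the 56 farther ones in 79.5% ± 6.31. The low shares were thus at middle distances, on either side of the limit. Of these members, 7 of the 19 and 3 of the 10 lie on chromosomes 2 or 4. In the other bins 17 of the 97 and 9 of the 56 do. Members of these chromosomes had a Gfi1 peak in 27.8% ± 7.86, against 85.3% ± 3.39 of the other members. The part of the chromosomes in the pattern by distance was not tested.

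The share with a peak differed widely between clusters. The 24 clustered members of chromosomes 2 and 4, a split chosen after the values were seen, had a Gfi1 peak in 25% and 12.5% and an Lsd1 peak in 12.5% and 25%. The other 92 clustered members had a Gfi1 peak in 89.1% and 84.8% and an Lsd1 peak in 82.6% and 84.8%. Of all protein-coding genes of chromosomes 2 and 4, 61.1% ± 7.63 had a Gfi1 peak, so that the low share was not one of the whole chromosomes. With chromosomes 2 and 4 left out, clustered minus isolated was 4.55 for Gfi1 and 0.362 for Lsd1.

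**Figure D3:**
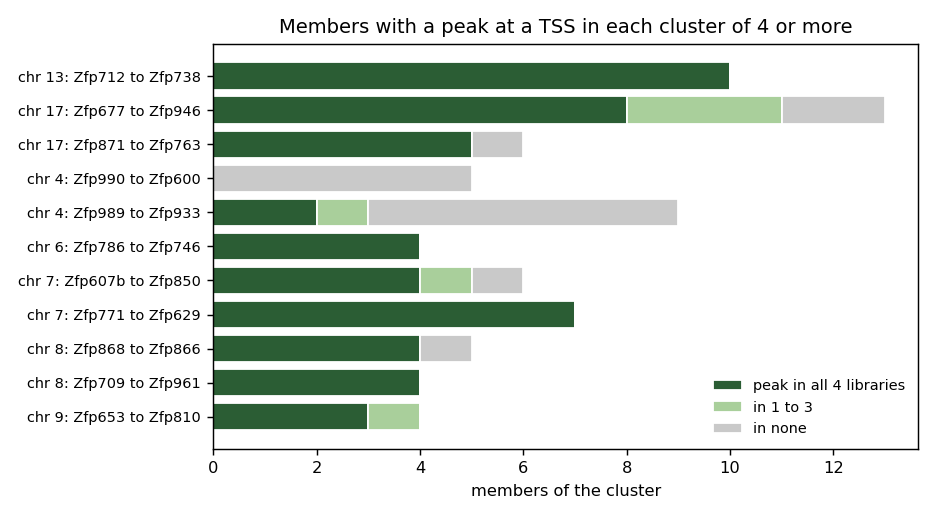
Number of members (x axis) with a peak at a TSS in all 4, in 1 to 3 or in none of the libraries, for each of the 11 clusters of 4 or more members (y axis, by chromosome and flanking members). The clusters of chromosomes 6, 8 (Zfp709 to Zfp961), 13 and 7 (Zfp771 to Zfp629) have a peak in all 4 libraries at every member, and the cluster Zfp990 to Zfp600 of chromosome 4 has none.

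Of the 11 clusters of 4 or more, 4 had a peak in all 4 libraries at every member, 1 had no peak at any, and 5 held members of both kinds. The largest complete cluster lies on chromosome 13 from 67038596 to 67687071 and holds 10 members, Zfp712, Zfp708, Zfp759, Zfp953, Zfp874a, Zfp874b, Zfp748, Zfp729b, Zfp729a and Zfp738. Its median CpG count was 21, which is low for genes with peaks, and its highest percentile was 84.5, for Gfi1 at Zfp729a in tumor 41. The next is the cluster of 7 on chromosome 7 from 127244274 to 127615797, with Zfp771, Zfp768, Zfp747, Zfp764, Zfp688, Zfp689 and Zfp629 and a median CpG count of 54. The 4 members of chromosome 6 from 47819266 to 48086593 (Zfp786, Zfp956, Zfp777, Zfp746) and the 4 of chromosome 8 from 71882019 to 71993792 (Zfp709, Zfp882, Zfp617, Zfp961) are the other complete clusters.

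On chromosome 4, the 5 members from 145510759 to 146198755, Zfp990, Zfp980, Zfp986, Zfp987 and Zfp600, had no peak in any library. In the next large cluster, from 146971976 to 147848366, 6 of 9 had none (Zfp989, Zfp988, Zfp978, Zfp982, Zfp985, Zfp979) and 2 had peaks in all 4, Zfp984 and Zfp933. Zfp984 had percentiles of 65.4, 35.8, 59.6 and 58.8 and Zfp933 of 62.2, 82.6, 67.7 and 67.5, beside neighbours without a called peak. The median CpG counts of these clusters were 8 and 12.

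The cluster of 13 on chromosome 17 from 21383748 to 22456689 had 8 members with peaks in all 4 libraries (Zfp948, Zfp983, Zfp760, Zfp942, Zfp943, Zfp994, Zfp944, Zfp758) and 2 with none, Zfp820 and Zfp947. In the cluster of 6 on chromosome 17 from 32765496 to 33033402, Zfp871, Zfp799, Zfp870, Zfp952 and Zfp763 had peaks in all 4 and Zfp811 in none. On chromosome 7 from 27689340 to 28014115, Zfp607b, Zfp607a, Zfp780b and Zfp850 had all 4 and Zfp626 none. On chromosome 8 from 69610857 to 69791178, Zfp868, Zfp964, Zfp963 and Zfp866 had all 4 and Zfp869 none. The last, on chromosome 9 from 22055411 to 22307648, had all 4 at Zfp653, Zfp809 and Zfp810. In 5 places adjacent members shared 1 peak in every library, at Zfp617 and Zfp882, Zfp646 and Zfp668, Zfp758 and Zfp944, Zfp934 and Zfp935, and Zfp942 and Zfp943.

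The 10 clustered members with the highest mean percentile were Zfp668, Zfp646, Zfp787, Zfp866, Zfp653, Zfp692, Zfp672, Zfp771, Zfp623 and Zfp689, with means from 96.0 to 88.8. Of isolated members 12 had no peak at a TSS in any library. The first 8 by number were Zfp616, Zfp648, Zfp683 (Hobit, a factor of resident lymphocytes), Zfp735, Zfp831, Zfp853, Zfp937 and Zfp951. All but Zfp853, with 65 CpGs near its 5′ end, had 24 or fewer. Clustered members also held weaker peaks, with median percentiles of 70.9 and 67.9 for Gfi1 and 65.8 and 67.4 for Lsd1, against 78.4, 71.0, 76.7 and 77.6 in isolated members. Peaks in the upper 20% were at 22.4% and 16.4% of clustered members for Gfi1 and 17.2% and 15.5% for Lsd1, against 37.9%, 24.2%, 34.8% and 36.4% of isolated ones. The clustered members stood lower in rank in each library, a difference that did not hold within every group of CpG count described next.

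Presence of a peak went with the CpG count within 500 bp of the 5′ end. The members had a median of 34 CpGs, against 41 over all protein-coding genes and 48 in Zfp1 to Zfp599. It was 45 in the 123 members with a peak in all 4 libraries and 12.5 in the 38 with none. All protein-coding genes were put into 3 groups of about equal size by this count, at up to 18, up to 60 and above 60. In the lowest group, 29.7% ± 3.82 of the 37 members had a Gfi1 peak and 31.1% ± 1.91 an Lsd1 peak, against 15.3% ± 3.32 and 16% ± 0.632 of all genes. Of the middle group, the 109 members had 82.6% ± 3.89 and 79.8% ± 5.19, against 71.9% ± 11.5 and 71.8% ± 3.58. In the highest CpG group the 36 members had 93.1% ± 5.89 and 91.7%, against 92.6% ± 7.89 and 93.5% ± 2.59. Members were thus above all genes in the lower groups. In the highest they differed from all genes by less than the SD between the tumors, at 0.467 points ± 1.99 and -1.87 ± 2.59. Members and all genes were not matched within a group. Their median CpG counts were 12 and 8 in the lowest and 34 and 42 in the middle.

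**Figure D4:**
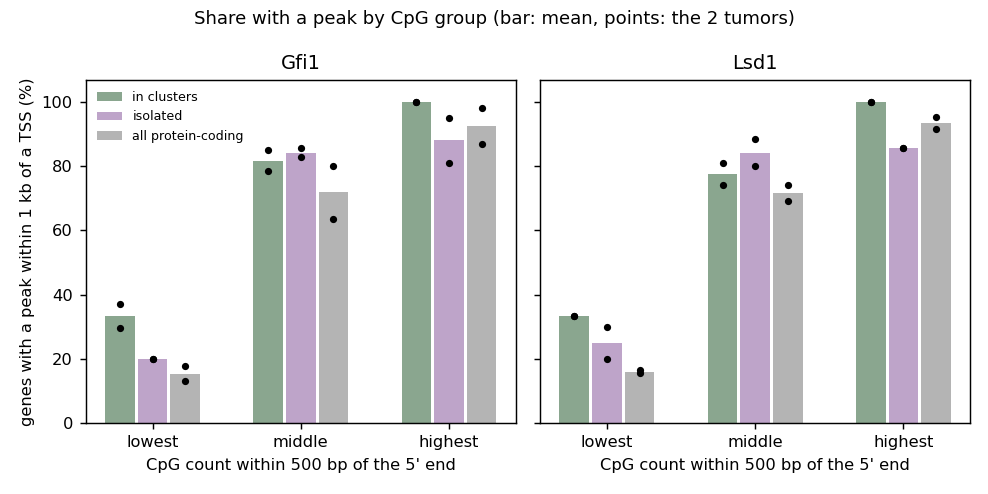
Percentage of genes with a Gfi1 (left) or Lsd1 (right) peak within 1 kb of a TSS (y axis), by group of the CpG count within 500 bp of the 5′ end (x axis), for clustered members, isolated members and all protein-coding genes. Bars are means and points the 2 tumors, and every set rises from at most 33.3% on average in the lowest CpG group to at least 85.7% in the highest.

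Within the CpG groups the sign of clustered minus isolated varied. It was above 0 in all 4 libraries in the lowest CpG group, with 27 clustered and 10 isolated members, and came to 13.3 points ± 5.24 for Gfi1 and 8.33 ± 7.07 for Lsd1. In the middle CpG group it was below 0 in all 4, at -2.53 ± 2.76 and -6.58 ± 1.28. All 15 clustered members of the highest CpG group had a peak in every library. The median CpG count was 29.5 in clustered and 48.5 in isolated members, and the part of this gap in the difference was not tested. The count is taken at the 5′ end of the gene record. Of the 10 members of the lowest CpG group with peaks in all 4 libraries, 6 (Zfp607a, Zfp708, Zfp738, Zfp759, Zfp791, Zfp934) had every such peak over 1 kb from that end, at another TSS.

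Rank was also read within the CpG groups. In the highest CpG group the members' median percentiles were 86.8, 81.4, 84.6 and 87.2, against 88.5, 81.4, 83.5 and 86.5 of all genes, so that the members were not lower throughout. There the clustered members had 92.3, 84.9, 85.6 and 89.6 and the isolated ones 86.4, 74.9, 83.9 and 85.9, the clustered being higher in each library. In the middle CpG group the clustered members were lower in each, with 69.8, 67.3, 65.8 and 67.0 against 77.0, 69.9, 73.6 and 72.1. In the lowest CpG group the clustered members were higher in each, but only 2 or 3 isolated members had a peak there. Across the 123 members with peaks in all 4, the Spearman correlation of CpG count and mean percentile was 0.560, and 0.286 across the 11653 such genes.

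Sequence uniqueness moved with the absent peaks, and its part in them was not tested. For each gene the share of 100-base words within 500 bp of the 5′ end that occur once in the genome was counted, since a read from a repeated word matches more than 1 place. It was under 90% at 39 members, 21 of them on chromosomes 2 and 4, and 0% at 9. Of the clustered members, 17 of the 24 of chromosomes 2 and 4 and 14 of the other 92 were under 90%. Of these 39, 42.3% ± 5.44 had a Gfi1 peak and 42.3% ± 9.07 an Lsd1 peak, against 82.5% ± 3.96 and 80.4% ± 1.98 of the other 143. Among the 38 members with no peak at a TSS, 19 had under 90% unique words. Another 12 had 90% or more but a CpG count in the lowest CpG group, and 7 had neither. Of the 9 with 0% unique words, 3 had a peak in all 4 libraries. At Zfp955a and Zfp955b the percentiles were from 58.3 to 69.4, and at Zfp781 they were 70.3, 18.7, 52.0 and 34.2. With members and all genes limited to 90% or more unique words, the members stood 19 points ± 4.05 above all genes for Gfi1 and 16.3 ± 0.410 for Lsd1. Clustered minus isolated was then 1.04 ± 3.60 and -2.48 ± 2.83, smaller than the SD between the tumors, and this difference was not tested.

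**Figure D5:**
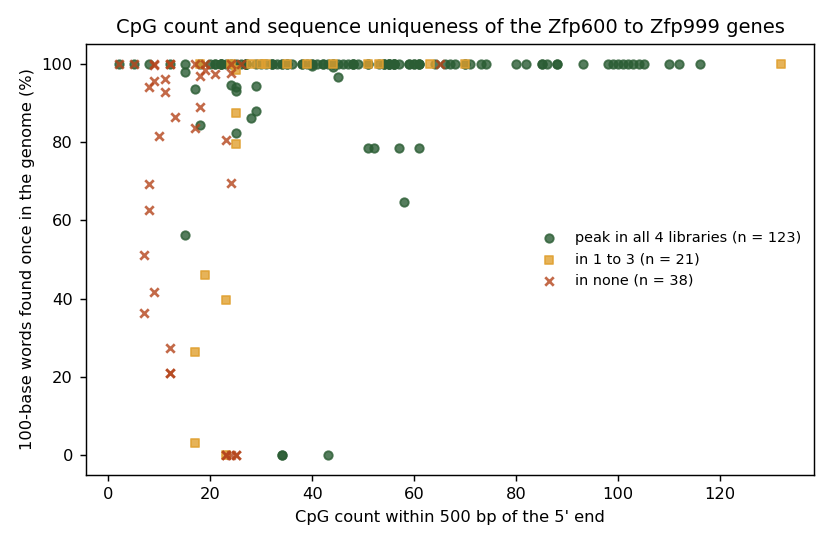
CpG count within 500 bp of the 5′ end (x axis) and percentage of 100-base words there that occur once in the genome (y axis) for the 182 members, by the number of libraries with a peak at a TSS. The 38 members with no peak (crosses) lie at CpG counts of up to 26 with the exception of Zfp853 at 65, and 110 of the 123 with a peak in all 4 libraries have 90% or more unique words.

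The difference between members with and without a KRAB match depended on the pattern. With the narrow pattern, 75.7% ± 5.73 of the 74 members with a match had a Gfi1 peak and 72.3% ± 0.956 an Lsd1 peak, against 72.7% ± 3.27 and 72.2% ± 5.24 of the 108 without. With the wider pattern the 116 members with a match had 67.2% ± 4.88 and 64.7% ± 3.66, and the 66 without had 85.6% ± 3.21 for both factors. The 42 members that only the wider pattern found, 16 of them on chromosomes 2 and 4, had 52.4% ± 3.37 and 51.2% ± 8.42. Under the wider pattern, 38 of the 116 members with a match and 1 of the 66 without had under 90% unique words. Among members with 90% or more, the difference narrowed from -18.4 to -8.08 points ± 1.27 for Gfi1 and from -21.0 to -11.9 ± 2.36 for Lsd1. With the narrow pattern the median percentiles were 71.7, 69.9, 65.6 and 69.1 with a match and 77.4, 69.7, 73.4 and 71.8 without. With the wider pattern the median percentiles were 69.1, 67.9, 64.4 and 66.3, against 85.3, 74.8, 80.4 and 82.9 without a match. The median CpG count was 27 with a match and 58 without. In the middle CpG group the median percentiles were 69.8, 68.7, 65.6 and 67.3, against 77.6, 69.3, 74.4 and 76.9. There the share with a peak differed by -20.4 points ± 1.54 for Gfi1 and -21.5 ± 0.328 for Lsd1. In the lowest it differed by -0.370 ± 5.24 and -5.37 ± 7.07. In the highest, with 6 matches, it was -1.67 ± 7.07 for Gfi1, and 83.3% against 93.3% for Lsd1. The part of CpG count in this split was not tested.

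Peaks away from start sites were less frequent in clustered than in isolated members. A peak in the gene body and over 1 kb from every annotated TSS was found at 16.5% and 8.79% of members for Gfi1 in tumors 39 and 41, and at 11.5% and 13.7% for Lsd1. Over all protein-coding genes the shares were 21.3%, 15.3%, 17.8% and 19.2%, higher than in the members in each library. The clustered members had 12.1%, 3.45%, 6.03% and 8.62% and the isolated members 24.2%, 18.2%, 21.2% and 22.7%. In this share of genes the isolated ones stood above all genes and the clustered ones below. The median gene body was 17.9 kb in members and 17.4 kb over all genes. The bodies of the 66 isolated members came to 3.58 Mb and those of the 116 clustered members to 2.60 Mb. Per Mb of gene body, isolated members had 9.49, 6.14, 7.82 and 10.6 such peaks and clustered members 6.91, 2.30, 3.84 and 5.38. All genes had 10.4, 6.45, 8.44 and 9.73 per Mb. By this measure the isolated members were above all genes only for Lsd1 in tumor 41. Such peaks were found in all 4 libraries at 12 members, Zfp608, Zfp609, Zfp618, Zfp652, Zfp653, Zfp664, Zfp697, Zfp704, Zfp710, Zfp771, Zfp787 and Zfp827. The same share over all genes is not given here, and the peaks of a member need not be 1 site. At Zfp618 the highest started at 63132695 for Gfi1 in tumor 39 and at 63084322, 63084136 and 63084046 in the other libraries. Its percentiles were 15.1, 1.5, 2.1 and 21.1, and Zfp827 fell to 5.1 for Gfi1 in tumor 41. The last coding exon, which holds the finger array in most KRAB zinc finger genes, was over 1 kb from every TSS at 163 members. It overlapped a peak at 9.20% and 2.45% of these for Gfi1 and 3.68% and 4.91% for Lsd1, against 11.7%, 5.41%, 7.93% and 9.95% of all genes. This exon is long in the members, with a median of 1318 bp against 156 bp. It had a peak in all 4 libraries at 3 members (1.84%, against 3.93% of the 16289 such genes), Zfp653, Zfp697 and Zfp771. At Zfp771 the highest peak away from a TSS had percentiles of 94.4, 79.2, 92.2 and 88.4.

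Motifs were counted in the 500 bp before and after the 5′ end, on both strands and each separately. The core of the Gfi1 site, AATCNNNGC, was in 38.5% of members, 35.8% of those with peaks in all 4 libraries, 50% of those with none and 30.9% of all protein-coding promoters. It was therefore not more common where peaks were called. The ETS motif CCGGAAG was in 33.0% of members against 19.2% of all promoters, and in 30.1% of members with all 4 and 39.5% of those with none. GGGCGG, bound by SP and KLF factors, was in 63.7% against 60.4%, and in 70.7% of members with all 4 and 39.5% of those with none. The NRF1 motif GCGCANGCG was in 13.7% against 12.9%, with 23 of its 25 members among those with all 4 and 0 among those with none. The YY1 motif AAGATGGCG was in 4.40% against 3.56%, and all 8 of its members had peaks in all 4. CTCGCGAG was in 0 members and 2.05% of all promoters. All of these but the Gfi1 core hold CG, and the CpG counts of the compared sets differ. A match is only a description of letters and not a site.

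The genes of the silencing pathway that KRAB proteins use all had a peak in every library, as had 53.1% of all protein-coding genes. The list of 19 holds Trim28, Setdb1 and its partner Atf7ip, the HP1 genes Cbx1, Cbx3 and Cbx5, Chd3 and Chd4 of NuRD, Dnmt1 and Uhrf1 of DNA methylation, Mphosph8, Fam208a and Pphln1 of HUSH with Morc2a, and Morc3, Atrx, Daxx, Kdm1a (Lsd1 itself) and Rcor1 (CoREST). Their median Gfi1 percentile was 93.2 in tumor 39 and 86.9 in tumor 41, and their median Lsd1 percentile was 87.9 and 90.1, each above that of the members. Trim28 had 96.4, 95.2, 92.9 and 97.6, and Setdb1 had 90.3, 80.2, 73.1 and 74.9. Kdm1a had 85.7, 59.8, 67.1 and 84.6. Over all genes with a peak the medians were 82.5, 77.4, 79.0 and 81.0. Of the 19, the numbers with a peak in the upper 20% of the list were 19, 16, 14 and 17. Of all protein-coding genes, 36.2%, 24.6%, 28.1% and 32.1% had one, and of those with a peak, 55.7%, 45.3%, 48.0% and 52.1%.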

How the data were processed

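ChIP-seq of Gfi1 and Lsd1 in MG tumors 39 (replicate 1) and 41 (replicate 2) was analysed from 4 deposited peak lists. The authors aligned reads to mm10 with BWA 0.6.2, merged files with Picard, dropped duplicate reads and ran MACS with default settings on each library against input chromatin. The deposited score in the fifth column is 50 or more and its definition is not given in the sources used here. It was turned into a percentile within each list and not compared between lists. Read counts are not part of the lists, and the depth behind each peak is unknown. By the study's methods, for each factor the library with more mapped reads gave the shorter list. The authors used GENCODE M9, and M21 with the GRCm38 genome was used here.

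A member had a peak when 1 came within 1 kb of any TSS of the gene. Of several, that with the highest score gave rank and width. Coding sequences were translated from M21, since no protein table was used here. Counts of words and motifs used the genome. No test was run. The members, lists and rule for named genes were chosen with earlier results of these data known. The rule names the 10 highest by mean percentile, the 5 widest, members with 1 factor or 1 tumor alone, clusters of 4 or more, 8 isolated members without peaks, 10 clustered ones with peaks in all 4, 4 with the largest rank difference each way, and members of known role. The join was tested on simulated data, and all 108 planted peaks of 182 members were found. Python 3.11.15, numpy 2.4.6, pandas 2.3.3 and pysam 0.24.0 were used. Alternatives varied the window, TSS set, score cutoff, gene assignment, neighbour distance, uniqueness and library. The upstream sequence of 1 named member is not reported here.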

Additional observations from a re-analysis of the deposited data

Results flagged for a closer look

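The share of members with a peak moved in opposite directions between the tumors for the 2 factors. From tumor 39 to tumor 41 it changed by -6.04 percentage points for Gfi1 and by 4.95 for Lsd1. With 1 library per factor and tumor this difference was not tested. Over all protein-coding genes the changes were -10.7 and 3.20 points, of the same signs. For Gfi1, 13 members had a peak in tumor 39 alone and 2 in tumor 41 alone. For Lsd1, 1 had a peak in tumor 39 alone and 10 in tumor 41 alone. The lists differ in length in the same directions, with 36836 and 25078 Gfi1 peaks and 30367 and 33213 Lsd1 peaks in tumors 39 and 41. For each factor the longer list came from the library with fewer mapped reads.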

How the results depend on the processing

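No paired analysis was possible because the results come from no test, and differences were taken within each tumor. Shares are of members in percent, differences in percentage points, and Gfi1 is given before Lsd1. Clustered minus isolated was -2.91 and -5.50. For Gfi1 it was -2.05 within 2 kb of a TSS, -1.40 with TSSs of protein-coding transcripts and -2.16 with the gene of the closest TSS, and for Lsd1 -3.98 within 500 bp. It was -4.19 and -8.29 at the 5′ end alone, -1.93 and -2.68 with equal numbers of peaks, -8.04 and -10.4 with neighbours within 500 kb, -6.21 and -8.53 with any Zfp gene as neighbour, and -0.883 and -3.36 in the upper CpG groups. It turned to 5.11 and 2.02 with neighbours within 100 kb. With only the upper 20% of scores the shares were 23.6 and 23.4, 24 members had peaks in all 4 libraries and 116 in none, clustered minus isolated was -11.7 and -19.2, and members minus all genes turned to -6.76 and -6.77. With the upper 50% the shares were 61.8 and 60.2, 58 had none, and the differences were 1.89 and -4.26, and 10.1 and 7.99. Without peaks at TSSs of another gene the shares were 52.2 and 49.2, 77 had all 4 and 73 none, clustered minus isolated was -8.44 and -12.0, and members minus all genes was 9.92 for Lsd1. With 90% or more unique words the shares were 82.5 and 80.4, 19 had none, and the differences were 1.04 and -2.48, and 19 and 16.3. Chosen after seeing the data, leaving out chromosomes 2 and 4 gave 85.3 and 83.6, 16 with none, and 4.55 and 0.362, and 25.9 and 23.8. The wider KRAB pattern, also chosen after seeing the data, turned the difference with minus without a match from 2.99 and 0.0751 to -18.4 and -21.0. The Lsd1 median percentile was 68.8 with the peak closest to the 5′ end. The causes were not tested. Leaving out either tumor gave shares of 70.9 to 76.9 and 69.8 to 74.7 and clustered minus isolated of -2.93 to -2.90 and -6.37 to -4.62. The lists give no depth, so an absent peak was not detectable rather than shown to be absent.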
